A study of Homo sapiens with 18 samples.

Results

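The 9 genes described here encode the secreted signals, the receptors and the inhibitory SMADs of the TGF-beta pathway. They are the ligands TGFB1, TGFB2 and TGFB3, the activin subunit INHBA, the receptors TGFBR1, TGFBR2 and TGFBR3, and the inhibitors SMAD6 and SMAD7. They were chosen by their role in the pathway, with earlier results of these data known, were found by gene symbol, and are 9 of the 27968 genes in the files. RNA sequencing had been done in 2 established cancer cell lines given siRNAs against BLM, a RecQ helicase that unwinds DNA structures formed in recombination and replication, and the series asked which genes BLM regulates. A549 is a lung adenocarcinoma line, and it was transfected with a control siRNA, siRNA1, siRNA2 or siRNA3. MDA-MB-231 is a breast cancer line, and it was transfected with a control siRNA or siRNA1. Each of the 6 groups had 3 libraries, all from siRNA-transfected cells grown in DMEM with 10% serum. That siRNA1 is the same molecule in both lines was taken from its shared name. The protocols describe flat culture and 3D culture, and the labels do not say which one a library came from. The labels do not state whether the 3 libraries of each group were grown apart, so p-values here reflect only how far these libraries vary, possibly for technical reasons.

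TGF-beta ligands are made as latent complexes held in the matrix, and become active only once freed from the complex, a step in which integrins and proteases take part. An active ligand binds the type II receptor TGFBR2, which then phosphorylates the type I receptor TGFBR1, and TGFBR1 phosphorylates SMAD2 and SMAD3, which enter the nucleus with SMAD4. SMAD7 and SMAD6 are inhibitory SMADs whose genes are themselves targets of TGF-beta and bone morphogenetic protein (BMP) signalling, so that they form a negative feedback loop. In carcinoma cells the pathway is known both for restraining growth and for promoting mesenchymal traits and matrix production.

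The start regions of TGFB2, TGFBR2 and SMAD7 are shown because these genes were called higher with each of the 3 BLM siRNAs in A549, in comparisons that share their control libraries. That of INHBA, whose test has a limit given with its values, is shown as the region of the activin subunit, the member that differed most between the lines. All sequences are from RefSeq on GRCh38.p14, read 5′ to 3′ on the strand of the gene, and a start region is the part of the 250 bases before an annotated start that lies outside exons of the same gene. Capitals mark an E-box (CACGTG) or a TATA box (TATAAA). TGFB2 is shown at chr1:218345086-218345335 on the plus strand, where its antisense gene TGFB2-AS1 also lies. INHBA is shown at chr7:41703109-41703340 on the minus strand. TGFBR2 is shown at chr3:30606106-30606355 on the plus strand, before the first of its 2 annotated starts. SMAD7 is shown at chr18:48949334-48949583 on the minus strand, before the middle of its 3 annotated starts.
TGFB2: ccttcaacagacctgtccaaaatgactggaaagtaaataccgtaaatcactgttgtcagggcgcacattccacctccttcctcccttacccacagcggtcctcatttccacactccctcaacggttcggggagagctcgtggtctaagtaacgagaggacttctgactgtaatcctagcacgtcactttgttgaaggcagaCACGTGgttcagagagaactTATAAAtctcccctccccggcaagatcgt
INHBA: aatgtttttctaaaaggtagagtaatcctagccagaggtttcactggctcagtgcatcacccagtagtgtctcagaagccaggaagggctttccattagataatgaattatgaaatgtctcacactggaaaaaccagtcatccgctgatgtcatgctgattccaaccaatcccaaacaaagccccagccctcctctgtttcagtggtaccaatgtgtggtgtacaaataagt
TGFBR2: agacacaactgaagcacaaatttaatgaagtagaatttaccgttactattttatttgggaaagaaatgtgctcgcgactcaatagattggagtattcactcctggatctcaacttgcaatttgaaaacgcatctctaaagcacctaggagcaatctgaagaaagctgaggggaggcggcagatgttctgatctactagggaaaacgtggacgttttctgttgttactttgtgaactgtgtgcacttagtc
SMAD7: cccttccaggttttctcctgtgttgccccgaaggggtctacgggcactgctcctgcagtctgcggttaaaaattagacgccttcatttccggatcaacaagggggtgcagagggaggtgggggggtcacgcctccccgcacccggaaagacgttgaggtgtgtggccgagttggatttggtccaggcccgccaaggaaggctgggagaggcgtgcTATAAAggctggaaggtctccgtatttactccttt

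The TGFB2 region held the E-box 49 to 44 bases and the TATA box 29 to 24 bases before the start. The SMAD7 region held a TATA box 35 to 30 bases before its start, and that of INHBA lay 11 to 6 bases before the start, outside the stretch shown. SMAD6 is shown for a different reason, since among the 20 start windows of the members, exons included, its window alone held the palindrome GTCTAGAC, a sequence that SMAD3 and SMAD4 bind. The palindrome lies 12 to 5 bases before the SMAD6 start, and 30 bases around it are shown, at chr15:66702206-66702235 on the plus strand, with the palindrome in capitals. The end of the palindrome and the bases after it overlap an annotated exon of SMAD6.
SMAD6: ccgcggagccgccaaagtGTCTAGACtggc

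Of 35116 start windows of 250 bases in the RefSeq table, 64, or 0.182%, held the palindrome on either strand. The E-box occurred in 6.34% and the TATA box, as TATAAA or TTTATA, in 10.7% of them. AP-1 sites (TGACTCA or TGAGTCA), found in 4.20% of windows, and the cAMP response element (TGACGTCA), found in 1.65%, had no match in the 20 windows of the 9 members. These matches are letters in a window and were not linked to binding by any measurement here.

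The libraries had 30143047 to 40328208 expected counts, which are RSEM estimates of the reads of each gene. BLM mRNA, the target, changed by -6.04, -2.88 and -3.59 on the log2 scale with siRNA1, siRNA2 and siRNA3 in A549, and by -2.76 with siRNA1 in MDA-MB-231. The third siRNA3 library of A549 stood apart, with an SD of its log2 deviations from the group mean of 0.251 against 0.0999 to 0.173 in the other 17 libraries. Left out, it changed none of the 9 calls against control, and no fold change of a member moved by more than 0.18 on the log2 scale. Its deviations were lower for genes with longer transcripts (Spearman correlation -0.618), and those of siRNA3 libraries 1 and 2 were higher (0.529 and 0.438). In the other groups this correlation ran from -0.38 to 0.267. The ligand shares and receptor ratios below compare genes of unlike length, and the part of length in them was not tested. Of 6 markers of lung alveolar type 2 cells, SFTPB, SFTPC, SFTPD and NKX2-1 were at 0 to 0.17 TPM in A549 control libraries, NAPSA at 0.38 to 0.55 and ABCA3 at 7.04 to 9.12, where TPM is a unit scaled to transcript length and library total. Of 6 luminal breast markers in MDA-MB-231 control libraries, the hormone receptor genes ESR1 and PGR stood at 0.22 to 0.28 and 0.07 to 0.12 TPM. The other 4 were higher, with GATA3 at 1.88 to 2.03, FOXA1 at 2.56 to 3.41, KRT8 at 543 to 660 and KRT18 at 499 to 652 TPM. The lung marker NKX2-1 stood at 6.15 to 7.35 TPM in these libraries. In bulk RNA, fewer cells expressing a gene and less RNA per cell cannot be told apart, and this holds for every value below.

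Levels per gene were compared first in the control libraries, in TPM. In A549 TGFBR2 was the most abundant of the 9 at 81.9 ± 5.33 TPM (SD, n = 3), followed by TGFB1 at 38.0 ± 5.42. TGFB2 at 18.4 ± 0.512 and TGFBR1 at 18.3 ± 0.990 overlapped, and SMAD6 (15.2 ± 1.18), SMAD7 (12.9 ± 1.08) and TGFBR3 (8.60 ± 0.442) came next. TGFB3 at 0.667 ± 0.133 and INHBA at 0.0833 ± 0.00577 TPM were the least abundant, and apart from TGFB2 and TGFBR1 no neighbours in this order overlapped. MDA-MB-231 control libraries also had TGFBR2 in first place, at 263 ± 12.1 TPM, followed by TGFB1 (71.4 ± 4.16) and TGFBR1 (63.7 ± 13.1), whose ranges overlapped. TGFB2 followed at 28.99 ± 3.07 TPM, then INHBA (14.9 ± 1.84) and TGFBR3 (14.6 ± 2.38), which overlapped, SMAD7 (7.72 ± 0.0764), SMAD6 (4.76 ± 0.486) and TGFB3 (0.997 ± 0.142).

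Between the control libraries of the lines, 8 of the 9 members differed in edgeR's quasi-likelihood test (adjusted p under 0.05), where 81% of all 16736 genes tested did (40.1% higher and 40.9% lower in A549), so the members' count was near the background. SMAD6 and SMAD7 were higher in A549, by 1.94 ± 0.0906 and 0.97 ± 0.0826 on the log2 scale (standard error). The other 6 were lower in A549, from TGFB2 at -0.38 ± 0.108 through TGFBR2 at -1.42 ± 0.0496 and TGFBR1 at -1.53 ± 0.114 to INHBA at -7.21 ± 0.183. TGFB3 was not called, at -0.31 ± 0.195, but was on TPM plus 1 (-0.26, limma adjusted p = 0.00790). With all 18 libraries in 1 fit, TGFB2 lost its call between the lines (-0.29, edgeR adjusted p = 0.0536). Line and any difference in handling cannot be told apart in this comparison.

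Against the control of its line, siRNA1 in A549 changed 7 of the 9 members, 6 higher and 1 lower, beside 71.7% of 15898 genes tested (39% higher and 32.8% lower). With siRNA2 there were 7, all higher, beside 60.9% of all genes (32.5% higher and 28.4% lower). With siRNA3 there were 8, of which 7 were higher and 1 lower, beside 61.3% of all genes (30.9% higher and 30.4% lower). In MDA-MB-231, siRNA1 changed 5 members, 2 higher and 3 lower, beside 55.3% of 15280 genes (27.5% higher and 27.8% lower). With siRNA1 the share of members called, 77.8% in A549 and 55.6% in MDA-MB-231, was near the background, while with siRNA2 (77.8%) and siRNA3 (88.9%) it was above it. The calls in A549 lay mostly in the higher direction, in a set of genes chosen with earlier results known, and neither pattern was tested over the set. The median log2 fold change of the members was 0.87, 0.57 and 1.11 with the A549 siRNAs, beside 0.09, 0.04 and 0.00 for all genes, and -0.14 beside 0.01 in MDA-MB-231. All 9 members passed the filter on low counts in every fit, INHBA in A549 only through its siRNA groups. Without INHBA, 6, 6 and 7 of the other 8 were called in A549, with medians of 0.85, 0.52 and 0.91.

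**Figure D1:**
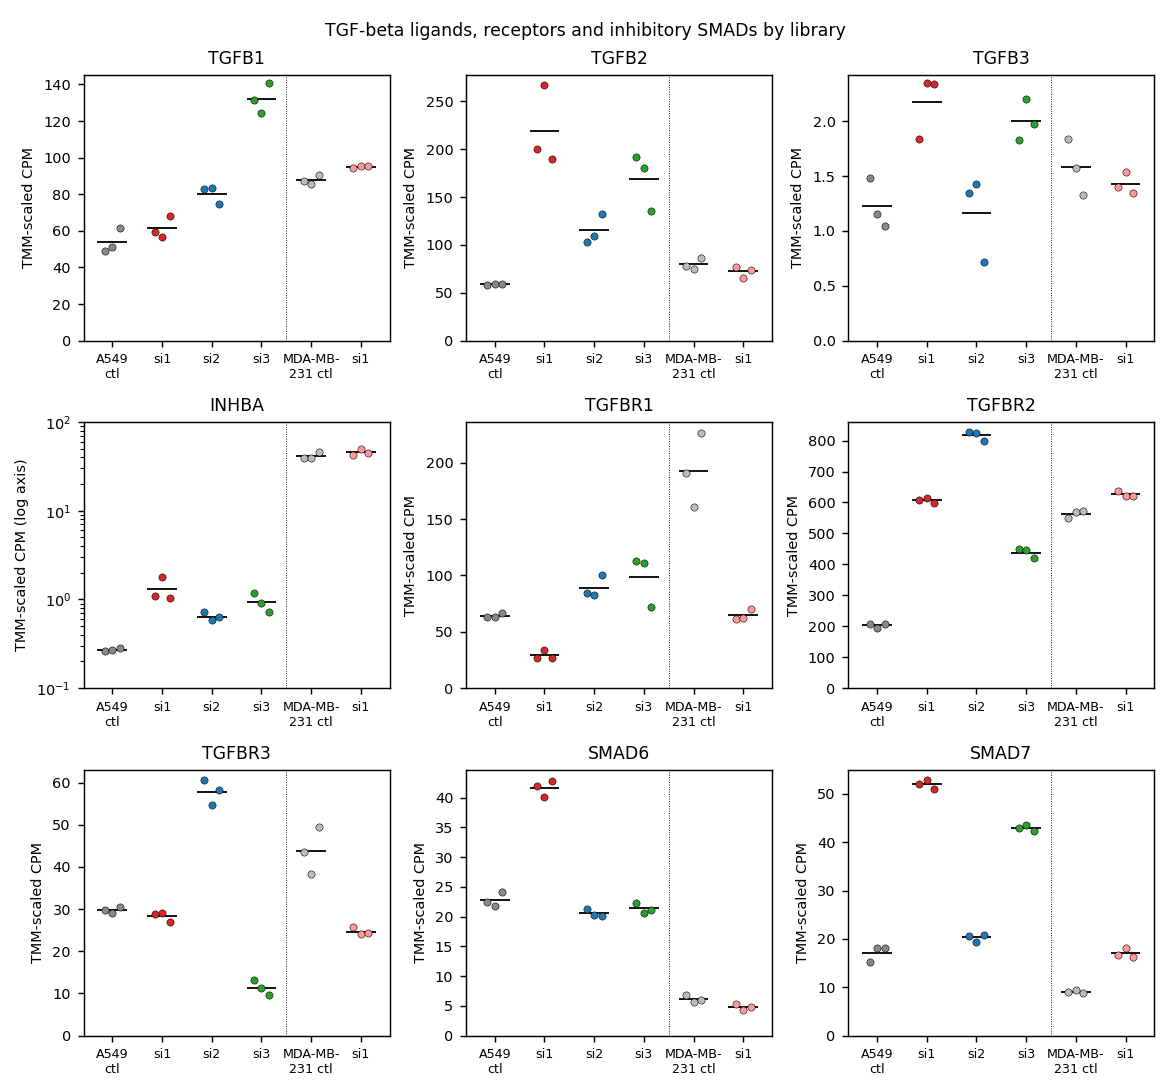
Library-scaled counts (CPM, TMM method within each line) of the 9 genes in each of the 18 libraries. Points are libraries, bars are group means, ctl is the control siRNA, si1 to si3 are the BLM siRNAs, and the INHBA axis is logarithmic; TGFBR2 stands at 195 to 208 CPM in A549 control and at 421 to 828 in the siRNA libraries.

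Levels within a line are given as CPM, a count scaled to library size by the TMM method. TGFB2, one of the secreted ligands and the one that depends most on TGFBR3 for receptor binding, rose with each siRNA in A549. In the order of the libraries 1 to 3, control stood at 58.3, 59.1 and 58.9 CPM. The level was 200, 268 and 190 CPM under siRNA1, 103, 109 and 133 under siRNA2, and 192, 180 and 136 under siRNA3. Each siRNA library lay above all control libraries, and the siRNA1 and siRNA3 ranges overlapped at 190 to 192 CPM. The log2 fold changes were 1.90 ± 0.152 (edgeR adjusted p = 8.98e-08), 0.97 ± 0.149 (7.72e-05) and 1.53 ± 0.150 (1.36e-06) with siRNA1, siRNA2 and siRNA3. Tested directly, siRNA1 exceeded siRNA2 by 0.93 ± 0.148 and siRNA3 exceeded siRNA2 by 0.56 ± 0.147 (edgeR adjusted p = 0.000123 and 0.00513), and the second of these was not called on TPM plus 1 (limma adjusted p = 0.0776). The excess of siRNA1 over siRNA3, 0.37 ± 0.146 (edgeR adjusted p = 0.0369), lost its call without siRNA1 library 2 (0.21, adjusted p = 0.205), siRNA3 library 2 (0.35, adjusted p = 0.0846) or siRNA3 library 3 (0.24, adjusted p = 0.128). It was also lost with no filter on low counts (0.30, edgeR adjusted p = 0.0740) and with only the groups compared in the fit (0.38, 0.0725).

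In MDA-MB-231 TGFB2 had 77.7, 75.3 and 85.9 CPM in control libraries and 77.2, 65.3 and 74.1 with siRNA1. These ranges overlapped, and the log2 fold change of -0.14 ± 0.0758 was not called (edgeR adjusted p = 0.140). The siRNA1 effect on TGFB2 was larger in A549 by 2.08 ± 0.152 on the log2 scale, tested as an interaction (edgeR adjusted p = 1.58e-08).

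TGFB1, the most studied ligand of the family and a strong inducer of matrix genes, had 48.9, 51.3 and 61.8 CPM in A549 control libraries. Libraries with siRNA1 had 59.3, 56.4 and 68.2 CPM, with siRNA2 82.6, 83.2 and 74.9, and with siRNA3 132, 124 and 141. The siRNA1 libraries overlapped the control range, those with siRNA2 lay above it, and those with siRNA3 were higher still. TGFB1 rose with siRNA2 (0.57 ± 0.102, edgeR adjusted p = 0.000284) and siRNA3 (1.29 ± 0.103, 1.89e-07), and siRNA3 exceeded siRNA2 by 0.72 ± 0.102 (3.81e-05) and siRNA1 by 1.11 ± 0.103 (5.26e-07). The excess of siRNA2 over siRNA1, 0.39 ± 0.102 (edgeR adjusted p = 0.00520), was not called on TPM plus 1 (0.23, limma adjusted p = 0.0624) or plus 0.1 (0.0648). With siRNA1 the fold change was 0.18 ± 0.102 and was not called (edgeR adjusted p = 0.125). It was called with upper quartile scaling (0.28, edgeR adjusted p = 0.0316), on the deposited TPM values plus 1 (0.43, limma adjusted p = 0.00154) and without control library 3 (0.29, edgeR adjusted p = 0.0230).

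In MDA-MB-231 control libraries TGFB1 had 87.1, 85.7 and 90.6 CPM, and with siRNA1 it had 94.5, 95.5 and 95.2. All siRNA1 libraries lay above the control ones, by a log2 fold change of 0.11 ± 0.0481 that was not called (edgeR adjusted p = 0.0675). It was called without control library 3 (0.12, edgeR adjusted p = 0.0289), with upper quartile scaling (0.17, 0.0116) and on TPM plus 1 (0.19, limma 0.0169). The siRNA1 effects on TGFB1 in A549 and MDA-MB-231 differed by 0.11 ± 0.121 (edgeR adjusted p = 0.453), which was not called.

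TGFB3, the ligand best known for its part in palate and lung development, was covered by few reads, with 24 to 88 counts per A549 library. It had 1.48, 1.15 and 1.05 CPM in control libraries, 1.84, 2.35 and 2.34 with siRNA1, 1.35, 1.43 and 0.718 with siRNA2, and 1.83, 2.204 and 1.97 with siRNA3. Libraries with siRNA1 and siRNA3 lay above control and those with siRNA2 spanned it. TGFB3 rose with siRNA1 (0.82 ± 0.227, edgeR adjusted p = 0.00524) and siRNA3 (0.70 ± 0.233, 0.0180) and was not called with siRNA2 (-0.07 ± 0.244, 0.812). The siRNA3 call was lost without siRNA3 library 2 (edgeR adjusted p = 0.0549), control library 2 (0.0562) or control library 3 (0.0708). The siRNA2 libraries were lower than those of siRNA1 by 0.90 ± 0.232 and those of siRNA3 by 0.78 ± 0.237 (edgeR adjusted p = 0.00478 and 0.0122).

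In MDA-MB-231 TGFB3 had 1.84, 1.58 and 1.33 CPM in control libraries and 1.40, 1.54 and 1.34 with siRNA1. The ranges overlapped and the fold change of -0.15 ± 0.180 was not called (edgeR adjusted p = 0.511). The siRNA1 effect was larger in A549 by 1.01 ± 0.266 (edgeR adjusted p = 0.00408).

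The make-up of the ligand pool was measured as the share of each gene in the summed TPM of TGFB1, TGFB2 and TGFB3. The sum was 53.2 to 63.6 TPM in A549 control libraries, 124 to 155 with siRNA1, 96.3 to 104 with siRNA2 and 126 to 164 with siRNA3. TGFB2 made up 34.2%, 33.6% and 29.6% of it in control libraries and 59.5%, 67.3% and 54.8% with siRNA1, so that TGFB2 took the first place that TGFB1 held in control. The means were 32.5% ± 2.52 and 60.5% ± 6.31 (SD, n = 3), a difference of 28.1 percentage points. With siRNA2 the TGFB2 share was 38.8% ± 4.58 and with siRNA3 36.0% ± 5.31, the latter overlapping control. The differences from control were 6.31 and 3.55 percentage points and moved with single libraries. The siRNA2 difference was 3.69 without siRNA2 library 3. The siRNA3 difference was 1.97 without siRNA3 library 1, 2.05 without library 2, 2.101 without control library 3 and 6.61 without siRNA3 library 3, the one that stood apart. In MDA-MB-231 the sum was 95.5 to 109 TPM in control and 106 to 113 with siRNA1, and the TGFB2 share was 28.6% ± 0.991 in control and 25.1% ± 1.75 with siRNA1. Of 12 two-sided exact permutation tests of shares, those for TGFB2 gave p = 0.10 with siRNA1 and siRNA2 in A549 and with siRNA1 in MDA-MB-231, each 0.15 after adjustment, and 0.30 with siRNA3. With 3 libraries against 3, this exact permutation test cannot give a p below 0.10.

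**Figure D2:**
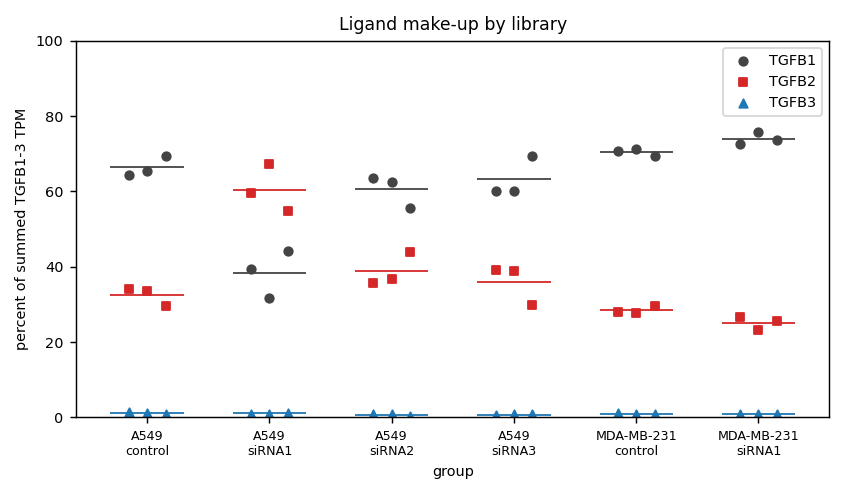
Percent of the summed TPM of TGFB1, TGFB2 and TGFB3 taken by each of them, by group, with points for libraries and bars for group means. TGFB2 stands at 54.8% to 67.3% in the A549 siRNA1 libraries and at or below 44.0% in every other library.

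INHBA, whose product pairs to form activin A, a ligand of the activin receptors that also act through SMAD2 and SMAD3, was near the detection limit in A549 control libraries, with 10, 10 and 11 counts. These equal 0.260, 0.268 and 0.281 CPM, under the 0.287 CPM that the filter asked for, so INHBA passed only through its siRNA groups, where it is high, and the filtered test of it against control is given with no p. It had 44, 67 and 38 counts with siRNA1 (1.09, 1.79 and 1.04 CPM), 25, 20 and 21 with siRNA2 (0.717, 0.582 and 0.628 CPM) and 41, 27 and 21 with siRNA3 (1.19, 0.901 and 0.715 CPM). Every siRNA library lay above every control library. The log2 fold changes were 2.26 ± 0.292, 1.24 ± 0.321 and 1.79 ± 0.308 with siRNA1, siRNA2 and siRNA3. With no filter on low counts, where INHBA was tested whatever its level, they were 2.18 ± 0.297 (edgeR adjusted p = 4.09e-06), 1.2045 ± 0.325 (0.00494) and 1.79 ± 0.312 (0.000102). On log2 of TPM plus 1, which compresses low values, the siRNA2 change was 0.16 and was not called (limma adjusted p = 0.105).

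The siRNA1 libraries exceeded those of siRNA2 in INHBA by 1.02 ± 0.260 (edgeR adjusted p = 0.00448). The differences of siRNA3 from siRNA1 (0.47 ± 0.250, 0.115) and from siRNA2 (0.55 ± 0.275, 0.102) were not called in edgeR's test. The first was called without siRNA3 library 1 (0.68, edgeR adjusted p = 0.0486) and the second without siRNA3 library 3 (0.0472), the library that stood apart. In MDA-MB-231 INHBA was far more abundant, at 39.7, 39.7 and 46.1 CPM in control and 43.1, 50.2 and 44.9 with siRNA1. These ranges overlapped and the fold change of 0.14 ± 0.0815 was not called (edgeR adjusted p = 0.179), though it was without control library 3 (0.20, 0.0158). The siRNA1 effect on INHBA was larger in A549 by 2.16 ± 0.296 (edgeR adjusted p = 1.43e-05) in the fit of both lines, a call lost on log2 of TPM plus 1 (0.24, limma adjusted p = 0.158). In that fit INHBA met the filter with siRNA1 in A549, where it is high, and also in both MDA-MB-231 groups, whose level alone was enough.

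TGFBR2, the type II receptor that binds the ligand first, rose with each siRNA in A549. Control libraries had 208, 195 and 206 CPM, those with siRNA1 608, 613 and 600, those with siRNA2 828, 826 and 800, and those with siRNA3 448, 446 and 421. No group overlapped another. The log2 fold changes were 1.58 ± 0.0643 (edgeR adjusted p = 1.09e-10), 2.01 ± 0.0652 (1.54e-10) and 1.11 ± 0.0636 (8.80e-09) for siRNA1, siRNA2 and siRNA3. The siRNA2 level exceeded that of siRNA1 by 0.43 ± 0.0628 (edgeR adjusted p = 5.99e-05) and that of siRNA3 by 0.90 ± 0.0632 (5.31e-08), and siRNA1 exceeded siRNA3 by 0.47 ± 0.0629 (1.83e-05).

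In MDA-MB-231 TGFBR2 had 548.7, 568 and 571 CPM in control libraries and 637, 623 and 621 with siRNA1. The groups did not overlap, and the rise of 0.16 ± 0.0400 was small but called (edgeR adjusted p = 0.00795). The siRNA1 effect was larger in A549 by 1.47 ± 0.0691 (edgeR adjusted p = 1.10e-10). In TPM, the A549 level went from 75.7 to 85.3 in control to 284 to 306 with siRNA1, beside 254 to 277 in MDA-MB-231 control libraries.

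TGFBR1, the type I receptor kinase that phosphorylates SMAD2 and SMAD3, moved in opposite directions with different siRNAs. A549 control libraries had 63.5, 62.9 and 66.3 CPM, those with siRNA1 27.1, 34.0 and 26.5, those with siRNA2 84.3, 82.7 and 101, and those with siRNA3 113, 112 and 72.5. All siRNA1 libraries lay below control and all libraries of the other siRNAs above it. TGFBR1 fell by 1.14 ± 0.155 on the log2 scale with siRNA1 (edgeR adjusted p = 1.72e-05) and rose by 0.47 ± 0.152 (0.0149) with siRNA2 and 0.62 ± 0.152 (0.00281) with siRNA3. The siRNA2 call was lost without siRNA2 library 3 (0.38, edgeR adjusted p = 0.0658).

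Tested directly, TGFBR1 with siRNA1 differed from siRNA2 by -1.61 ± 0.156 and from siRNA3 by -1.76 ± 0.157 (edgeR adjusted p = 1.37e-06 and 3.58e-07). The difference between siRNA2 and siRNA3, -0.15 ± 0.151, was not called (edgeR adjusted p = 0.418), and without siRNA3 library 3 it was -0.33 (0.0158). The fall with siRNA1 also occurred in MDA-MB-231, where the level was 191, 161 and 226 CPM in control and 61.4, 62.0 and 70.2 after siRNA1. TGFBR1 fell there by 1.58 ± 0.112 (edgeR adjusted p = 2.46e-06), with no overlap, and was the member with the largest change in that line. The interaction, 0.48 ± 0.160 (edgeR adjusted p = 0.0171), was less certain, as it was not called without MDA-MB-231 siRNA1 library 1 (0.34, 0.121) or 2 (0.34, 0.120) or with all 18 libraries in 1 fit (0.37, 0.136).

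The balance of the receptor pair followed from these values. The ratio of TGFBR2 to TGFBR1 in TPM was 4.64, 4.40 and 4.41 in A549 control libraries and 31.7, 25.5 and 32.1 with siRNA1. It was 13.9, 14.1 and 11.2 with siRNA2 and 5.63, 5.67 and 8.22 with siRNA3, so that every siRNA library lay above control. In MDA-MB-231 it was 4.08, 5.02 and 3.57 in control libraries and 14.7, 14.3 and 12.6 with siRNA1. The ratio in the control libraries of the lines overlapped, and with siRNA1 it was higher than control in both lines, through both receptors in A549 and mostly through TGFBR1 in MDA-MB-231. No test beyond those of the single genes was made on the ratio.

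**Figure D3:**
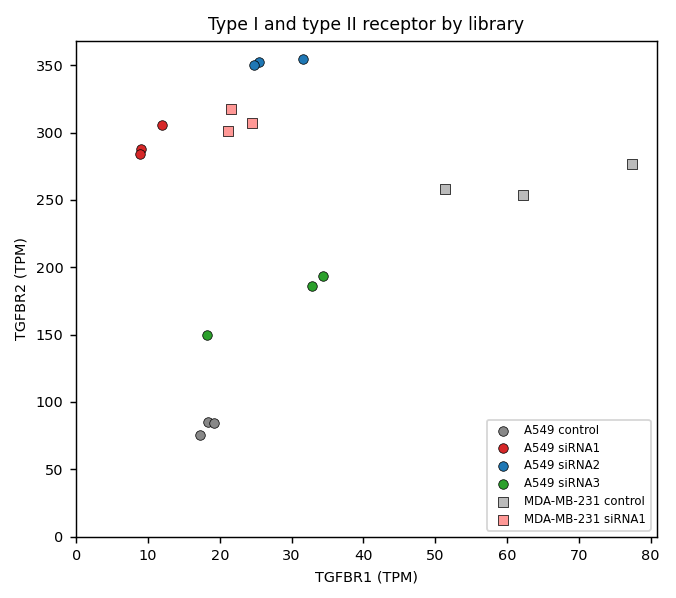
TGFBR2 against TGFBR1 in TPM, with 1 point per library, circles for A549 and squares for MDA-MB-231. A549 siRNA1 libraries stand at 8.84 to 12 TPM of TGFBR1 and 284 to 306 TPM of TGFBR2, up and to the left of the A549 control libraries at 17.2 to 19.2 and 75.7 to 85.3, while the MDA-MB-231 siRNA1 libraries stand to the left of their controls.

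TGFBR3, or betaglycan, is a co-receptor that presents ligand, TGFB2 above all, to TGFBR2. A549 control libraries had 29.8, 29.1 and 30.6 CPM, those with siRNA1 28.9, 29.1 and 26.9, those with siRNA2 60.5, 54.8 and 58.2, and those with siRNA3 13.2, 11.3 and 9.70. The siRNA2 libraries lay above control and the siRNA3 libraries below it. TGFBR3 rose by 0.96 ± 0.0950 with siRNA2 (edgeR adjusted p = 1.54e-06) and fell by 1.38 ± 0.1001 with siRNA3 (7.40e-08), and those 2 siRNAs differed by 2.34 ± 0.101 (6.86e-10). With siRNA1 the fold change was -0.07 ± 0.0952 and was not called (edgeR adjusted p = 0.494), and its sign turned under upper quartile scaling (0.02) and on TPM plus 1 (0.16).

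In MDA-MB-231 TGFBR3 had 43.4, 38.3 and 49.6 CPM in control libraries and 25.7, 24.1 and 24.3 with siRNA1. It fell by 0.83 ± 0.0897 (edgeR adjusted p = 3.98e-05), with no overlap. The siRNA1 effects of the lines differed by 0.80 ± 0.120 (edgeR adjusted p = 3.63e-05).

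SMAD7, which blocks TGFBR1 and brings ubiquitin ligases to it, rose with each A549 siRNA, but to different extents. Control libraries had 15.3, 18.2 and 18.1 CPM, those with siRNA1 52.1, 52.8 and 51.1, those with siRNA2 20.6, 19.4 and 20.9, and those with siRNA3 43.0, 43.6 and 42.3. The siRNA1 and siRNA3 libraries stood far above control and those of siRNA2 just above its highest library. The log2 fold changes were 1.60 ± 0.0798 (edgeR adjusted p = 8.37e-10), 0.24 ± 0.0800 (0.0186) and 1.32 ± 0.0797 (1.47e-08). The siRNA2 call was lost without control library 1 (0.16, edgeR adjusted p = 0.104), siRNA2 library 1 (0.23, 0.0584) or siRNA2 library 3 (0.22, 0.0576), and with no filter on low counts (0.20, 0.0741).

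Between siRNAs, SMAD7 with siRNA2 was below siRNA1 by 1.36 ± 0.0793 and below siRNA3 by 1.08 ± 0.0793 (edgeR adjusted p = 8.90e-09 and 8.08e-08). The excess of siRNA1 over siRNA3 was 0.28 ± 0.0770 (edgeR adjusted p = 0.00610) and was not called without siRNA3 library 2 (0.21, 0.0604) or with no filter on low counts (0.20, 0.0561). In MDA-MB-231 SMAD7 had 9.02, 9.42 and 8.88 CPM in control libraries and 16.7, 18.1 and 16.3 with siRNA1, with no overlap. It rose by 0.90 ± 0.0781 (edgeR adjusted p = 8.90e-06), and the siRNA1 effect was larger in A549 by 0.74 ± 0.112 (3.95e-05).

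SMAD6, the inhibitory SMAD that acts mainly on BMP receptor signalling, rose with siRNA1 in A549. Control libraries had 22.4, 21.9 and 24.1 CPM, those with siRNA1 41.9, 40.0 and 42.8, those with siRNA2 21.3, 20.4 and 20.04, and those with siRNA3 22.4, 20.6 and 21.2. The siRNA1 libraries lay above all others, siRNA2 lay below control and siRNA3 overlapped it. The fold change with siRNA1 was 0.87 ± 0.0717 (edgeR adjusted p = 1.25e-07), and siRNA1 exceeded siRNA2 by 1.02 ± 0.0722 (6.69e-08) and siRNA3 by 0.96 ± 0.0723 (6.99e-08). With siRNA2 it was -0.15 ± 0.0725 (edgeR adjusted p = 0.0934) and with siRNA3 -0.09 ± 0.0726 (0.296), and neither was called. The siRNA2 change was called with DESeq2 size factors (-0.18, edgeR adjusted p = 0.0401), in the DESeq2 test (-0.18, 0.0387), with a filter of 1 CPM (-0.18, 0.0371), with all 18 libraries (-0.21, 0.0298) and without siRNA3 library 2 (-0.18, 0.0488).

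In MDA-MB-231 SMAD6 was lower, with 6.89, 5.72 and 5.93 CPM in control libraries and 5.26, 4.37 and 4.83 with siRNA1. The groups did not overlap, and SMAD6 fell by 0.36 ± 0.120 (edgeR adjusted p = 0.0288). This call was lost without control library 1 (-0.28, edgeR adjusted p = 0.108) or siRNA1 library 2 (-0.29, 0.0980) or 3 (-0.36, 0.0736), with upper quartile scaling (-0.30, 0.0546) and on TPM plus 1 (-0.23, limma 0.0836). The siRNA1 effects of the lines lay in opposite directions and differed by 1.27 ± 0.128 (edgeR adjusted p = 5.50e-07). SMAD6 and SMAD7, both inhibitory, thus both rose with siRNA1 in A549, and in MDA-MB-231 SMAD7 rose while SMAD6 fell, with the losses of that call given above.

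**Figure D4:**
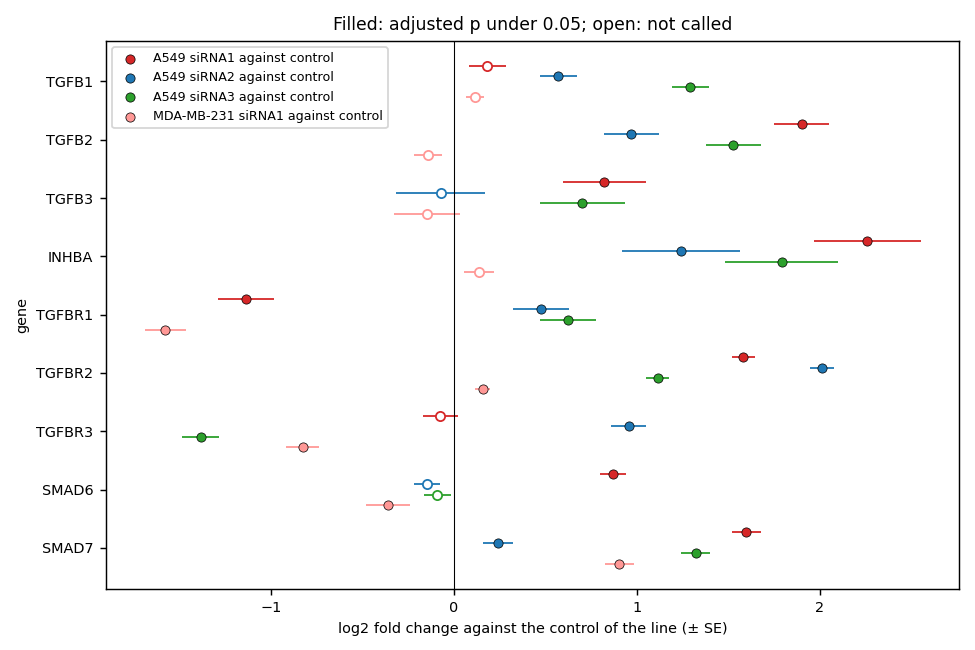
Log2 fold change of each gene against the control of its line, with standard errors, from edgeR. Filled points have an adjusted p under 0.05; the siRNA1 points of the lines lie apart for TGFB2, at 1.90 in A549 and -0.14 in MDA-MB-231, and side by side in direction for TGFBR1, at -1.14 and -1.58.

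The siRNAs differed among themselves at most members, as they did at most of all genes. Between siRNA1 and siRNA2, 9 of 9 members were called, 5 higher and 4 lower with siRNA1, beside 56% of all genes (28.6% higher and 27.4% lower). Between siRNA1 and siRNA3, 7 members were called, 5 higher and 2 lower with siRNA1, beside 66.6% of all genes (34.4% higher and 32.3% lower). Without siRNA3 library 3, 6 members were called. Between siRNA2 and siRNA3, 6 members were called, 2 higher and 4 lower with siRNA2, beside 59% of all genes (30.1% higher and 28.9% lower). Without siRNA3 library 3, that count was 8. The shares of members called in the comparisons with siRNA3, 77.8% and 66.7%, were near the background. The difference of the siRNA1 effect between lines was called for 8 of 9 members, all with the higher value in A549, beside 57.8% of 16736 genes (30.8% higher and 27% lower). Of these 8, TGFBR1 fell in both lines and the larger fall was in MDA-MB-231. BLM mRNA itself differed in its change, by -3.23 on the log2 scale between the lines for siRNA1, and its part in the difference between lines was not tested.

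Genes whose pattern over the 12 A549 libraries was most like that of a member were named by Pearson's r of log2 CPM. These values are descriptions, since the libraries form 4 groups and every gene that moved with the groups shares that structure. The pattern of TGFB2 was most like that of CADM1 (r = 0.992) and that of INHBA was most like TGFB2 itself (0.974). TGFBR2 was closest to MMP24 (0.992), TGFBR3 to FZD5 (0.996), TGFBR1 to UBE3C (0.986), TGFB1 to MAZ (0.987), SMAD6 to LTB4R (0.995), SMAD7 to KCTD11 (0.986) and TGFB3 to BEND7 (0.919). Among the members, TGFB2 and SMAD7 had r = 0.904 and TGFBR1 and SMAD6 had r = -0.937.

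RSEM's mean transcript length, weighted by the abundance of the transcripts of a gene, gave a second readout. For TGFBR2, which has 2 annotated transcripts, it was 4644.4 ± 1.37 bases in A549 control libraries, 4653.2 ± 1.17 with siRNA1 and 4653.3 ± 1.23 with siRNA2 (SD, n = 3). These did not overlap control, with a difference of 8.89 and 8.97 bases, while siRNA3 (4646.2 ± 1.70) did. In MDA-MB-231 the length was 4640.5 ± 0.58 in control and 4637.9 ± 1.05 with siRNA1, the opposite direction. Of 36 such exact permutation tests over the members, 6 had groups that did not overlap, each with p = 0.10, the smallest possible, and 0.60 after adjustment over all 36. TGFB1 and INHBA have 1 annotated transcript each, so their lengths could not vary. Their tests are counted in the 36 and in the adjustment, though their outcome was fixed. How often groups did not overlap over all genes was not measured.

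Genes that store and release the latent ligand mostly rose in A549. Of 12 tested, 10 rose and 1 fell with siRNA1 (median log2 fold change 1.68), 11 rose and 1 fell with siRNA2 (1.304), and 8 rose and 2 fell with siRNA3 (0.70). Over all genes the shares that rose were 39%, 32.5% and 30.9%, those that fell 32.8%, 28.4% and 30.4%, and the medians 0.09, 0.04 and 0.00. FBN1, the fibrillin that anchors latent complexes in the matrix, stood at 15.4 ± 2.49 CPM in control libraries (SD, n = 3). It reached 242 ± 2.42 CPM under siRNA1, 167 ± 12.03 under siRNA2 and 76.97 ± 21.0 under siRNA3. LTBP1, which binds latent TGF-beta, rose by 1.65 ± 0.0945 with siRNA1, more than with siRNA2 by 1.22 ± 0.0933 (edgeR adjusted p = 1.37e-07). LTBP2, a matrix relative of LTBP1, rose by 1.81 ± 0.127 with siRNA2 and 2.44 ± 0.129 with siRNA3. ITGB6, a subunit of the integrin that activates latent ligand on epithelial cells, rose by 2.88 ± 0.177 with siRNA3. In MDA-MB-231 the same list had 1 gene higher and 6 lower of 11 tested (median -0.29, beside 27.5% higher, 27.8% lower and a median of 0.01 over all genes), with FBN1 falling by 1.46 ± 0.0669 and THBS1, thrombospondin 1, which can activate latent TGF-beta, falling by 1.29 ± 0.0636. The siRNA1 effects on FBN1 in A549 and MDA-MB-231 differed by 5.47 ± 0.137 (edgeR adjusted p = 1.94e-13).

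The intracellular SMADs and their regulators divided between directions. Of 21 tested, 7 rose and 7 fell with siRNA1, 4 and 9 with siRNA2, 6 and 7 with siRNA3, and 10 and 4 in MDA-MB-231. The called shares, 66.7%, 61.9%, 61.9% and 66.7%, stood beside 71.7%, 60.9%, 61.3% and 55.3% of all genes. SMAD3, a direct substrate of TGFBR1, fell by 1.07 ± 0.0716 with siRNA2, from 610 ± 11.5 CPM to 290 ± 9.82 (SD, n = 3). BAMBI, a pseudoreceptor that dampens signalling, rose by 1.28 ± 0.0723 with siRNA1 and 1.06 ± 0.0721 with siRNA2. PMEPA1, an inhibitor that sequesters SMAD2 and SMAD3, rose by 1.27 ± 0.0707 with siRNA3. In MDA-MB-231 the corepressor genes TGIF1 and SKIL rose by 0.96 ± 0.0539 and 1.18 ± 0.149. All these counts were read from edgeR's tests over all genes, and their medians lay between -0.18 and 0.03, near those of all genes.

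Known TGF-beta response genes had 12 higher and 6 lower of 24 tested with siRNA1 (median 0.21), 11 and 6 with siRNA2 (0.20), 17 and 2 with siRNA3 (1.28), and 14 and 6 in MDA-MB-231 (0.28). The called share was 75.0% with siRNA1, near the 71.7% of all genes, 70.8% with siRNA2 beside 60.9%, 79.2% with siRNA3 beside 61.3%, and 83.3% in MDA-MB-231 beside 55.3%. CTGF, a matrix-associated growth factor, fell by 1.74 ± 0.0954 with siRNA2 and rose by 2.34 ± 0.0870 with siRNA3, and the siRNAs differed by 4.08 ± 0.0976 (edgeR adjusted p = 5.81e-12). IL11, a cytokine gene that TGF-beta induces, rose from 9.93 ± 1.16 CPM to 110 ± 9.48 with siRNA3 (SD, n = 3), a log2 fold change of 3.47 ± 0.106. In MDA-MB-231 JUNB, an early response gene, rose by 1.57 ± 0.0784 and CTGF fell by 1.24 ± 0.0506. Some of these genes were already known to move in these libraries when the list was made, so the list is no independent evidence of direction.

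Among activin, BMP and co-receptor relatives, 6 rose and 3 fell of 16 tested with siRNA1, 5 and 4 with siRNA2, 2 and 7 with siRNA3, and 6 and 6 in MDA-MB-231, with medians of 0.13, -0.07, -0.14 and 0.05. The called share was 56.2% with each A549 siRNA, beside 71.7%, 60.9% and 61.3% of all genes. In MDA-MB-231 it was 75.0%, beside 55.3%. INHBB, which encodes the other main activin subunit, stood at 17.3 ± 0.648 CPM in A549 control libraries (SD, n = 3). Its level was 26.1 ± 1.21 CPM under siRNA1, 42.8 ± 1.94 under siRNA2 and 11.03 ± 0.879 under siRNA3. It rose by 0.59 ± 0.0794 and 1.302 ± 0.0796 with the first 2 and fell by 0.65 ± 0.0825 with siRNA3. In MDA-MB-231 INHBB fell by 1.82 ± 0.118, and FST, which encodes the activin antagonist follistatin, fell by 1.04 ± 0.0834. A list of BMP ligands and antagonists, which also held the protease gene BMP1, had 9 genes tested in A549. Of these, 5 rose and 1 fell with siRNA1, 8 rose and 0 fell with siRNA2, and 2 rose and 5 fell with siRNA3. The medians were 0.75, 1.23 and -0.59, and the called shares 66.7%, 88.9% and 77.8%, beside 71.7%, 60.9% and 61.3% of all genes. BMP1, a protease that acts on matrix proteins and latent complexes, rose by 2.16 ± 0.0981, 1.93 ± 0.0975 and 1.85 ± 0.0974. GREM1, a BMP antagonist, rose by 0.93 ± 0.0856, 1.46 ± 0.0858 and 2.06 ± 0.0865. In MDA-MB-231, 3 genes of that list rose and 2 fell of 7 tested (median 0.22, beside 0.01 over all genes). The called share was 71.4%, beside 55.3% of all genes (27.5% higher and 27.8% lower).

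**Figure D5:**
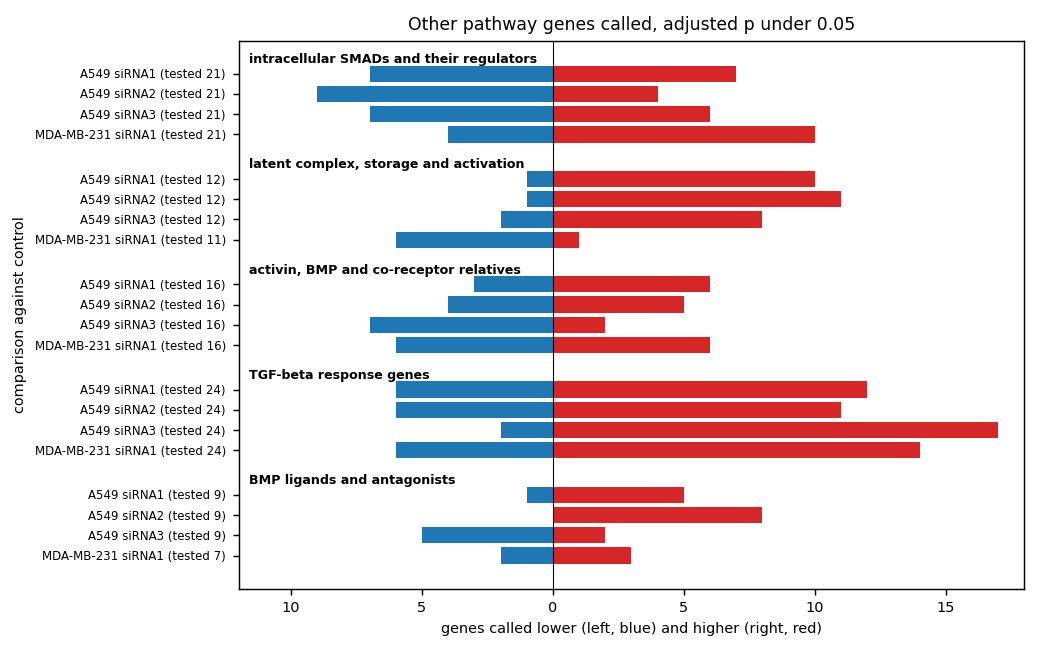
Number of other pathway genes called higher (right) and lower (left) against control, by list and comparison, with the number tested. In the latent complex list the A549 bars reach 8 to 11 genes on the higher side, and the MDA-MB-231 bar reaches 6 on the lower side.

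Markers of other cell types and states also differed between the groups, gene by gene and not as classes. Among 4 mesenchymal genes, VIM stood at 785 to 853 TPM in A549 control, 927 to 948 with siRNA1, 1126 to 1203 with siRNA2 and 1675 to 1784 with siRNA3. CDH2 was at 32.7 to 35.3 TPM in control and 57.0 to 97.0 over the siRNA groups. FN1 went from 78.2 to 129 TPM in control to 791 to 865 with siRNA1 and 573 to 661 with siRNA2, and was at 54.9 to 117 with siRNA3, overlapping control. ZEB1 lay below its control range of 12.5 to 14.2 TPM with siRNA1 (8.99 to 10.8) and siRNA2 (6.65 to 8.10) and overlapped it with siRNA3 (9.71 to 19.2). The sum of the 4 was 930 to 1025 TPM in A549 control and 1807 to 1959 over the siRNA groups, and 3064 to 3105 in MDA-MB-231 control and 2190 to 2259 with siRNA1. Most of the sum in MDA-MB-231 was VIM, at 2749 to 2811 TPM in control and 1815 to 1914 with siRNA1. There CDH2, low in both groups, was also below control with siRNA1 (0.25 to 0.53 and 0.08 to 0.12 TPM). FN1 went the other way, from 251 to 262 TPM in control to 301 to 322 with siRNA1. ZEB1 overlapped, at 42.1 to 52.0 and 45.2 to 52.7 TPM.

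Among 5 epithelial genes, CDH1, which encodes E-cadherin, was at 15.6 to 19.6 TPM in A549 control, 65.4 to 73.0 with siRNA1, 72.1 to 73.8 with siRNA2 and 1.02 to 1.77 with siRNA3. EPCAM was at 2.34 to 3.01 TPM in control, 10.1 to 13.2 with siRNA1, 60.1 to 77.7 with siRNA2 and 1.94 to 2.06 with siRNA3. CDH1 and EPCAM were thus above control with siRNA1 and siRNA2 and below it with siRNA3. KRT19 was above control with every siRNA. It was at 58.3 to 63.7 TPM in control, 421.9 to 461.1 with siRNA1, 330.5 to 350.6 with siRNA2 and 106.8 to 113.6 with siRNA3. The sum of the 5, nearly all of it KRT8 and KRT18, was 5115 to 5362 TPM in control, 13120 to 14950 with siRNA1, 6687 to 6943 with siRNA2 and 5138 to 5471 with siRNA3. The sum of 6 fibroblast markers was 1.69 to 1.79 TPM in A549 control, 10.96 to 12.64 with siRNA1, 14.72 to 16.04 with siRNA2 and 5.42 to 9.27 with siRNA3. Most of it was COL1A1, at 1.2 to 1.34 TPM in control and 5.07 to 12.2 over the siRNA groups, and DCN was at 0 to 0.02 TPM in all A549 libraries. COL3A1 and LUM, both low, were above control with siRNA1 and siRNA2 and below it with siRNA3. COL3A1 was at 0.22 to 0.27 TPM in control, 0.84 to 0.92 with siRNA1, 2.39 to 2.65 with siRNA2 and 0.09 to 0.20 with siRNA3. LUM was at 0.10 to 0.12, 1.49 to 1.74, 0.97 to 1.24 and 0.03 to 0.08 TPM in the same order. In MDA-MB-231 the sum of the fibroblast markers was 6.93 to 7.64 TPM in control and 8.95 to 9.70 with siRNA1. Only COL1A1 was above control there, at 4.64 to 5.02 TPM in control and 7.56 to 7.92 with siRNA1. PDGFRB (1.00 to 1.17 and 0.52 to 0.72 TPM) and COL1A2 (0.18 to 0.32 and 0.09 to 0.14) were below control, and COL3A1, LUM and DCN overlapped it. Of the alveolar type 2 markers, ABCA3 was at 22.4 to 25.4 TPM with siRNA1, 11.21 to 12.03 with siRNA2 and 18.7 to 36.4 with siRNA3, while SFTPB, SFTPC and NKX2-1 were at 0 to 0.21 in all A549 libraries. NAPSA was at 0.38 to 0.55 TPM in control, 1.17 to 1.85 with siRNA1, 0.92 to 1.24 with siRNA2 and 0.74 to 1.04 with siRNA3. SFTPD was at 0.04 to 0.17 TPM in control, 0.32 to 0.47 with siRNA1, 0 to 0.35 with siRNA2 and 0 to 0.06 with siRNA3. Of 6 leukocyte markers, CD68 was at 19.7 to 24.4 TPM in A549 control and 23.4 to 38.8 over its siRNA groups, and PTPRC and CD3E were at 0 to 0.01 in all 12 libraries. CD14 was at 4.30 to 5.89 TPM in control, 3.74 to 6.15 with siRNA1, 6.72 to 8.53 with siRNA2 and 1.61 to 1.91 with siRNA3. LYZ was at 0 to 0.03 TPM in control, 0 to 0.22 with siRNA1, 0.79 to 1.09 with siRNA2 and 0 to 0.08 with siRNA3. The part of these markers in the changes of the 9 members was not tested. The antisense and overlapping genes of TGFB2 had few counts, with TGFB2-AS1 at 1 to 20 and TGFB2-OT1 at 0 to 55.2 beside 2196 to 10034 for TGFB2, and INHBA-AS1 had 0 to 6 beside 10 to 1862 for INHBA. Whether the counting used strand is not given in the sources used here.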

How the data were processed

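RNA from 18 siRNA-transfected libraries was sequenced, and the values start from the authors' tables. Expected counts were deposited per gene, estimated with RSEM on hg19 per the submitters' processing notes. Its version and the aligner were not given in the sources used here, nor was the annotation release. Per the file headers, TPM was deposited beside them, which corrects for length and library total. The deposited FPKM values were not used here. Transcript lengths are the authors' abundance-weighted means, another column per the file headers.

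Expected counts were rounded. Tests used edgeR 4.0.16 in R 4.3.3 (TMM scaling, filterByExpr with minimum count 10 and minimum total 15, quasi-likelihood F test), with Benjamini-Hochberg adjustment over all genes tested and a threshold of 0.05. Separate fits held the 12 A549 libraries, the 6 of MDA-MB-231, and, for comparisons between lines, the 12 control and siRNA1 libraries of both. A standard error is the absolute log2 fold change divided by the square root of F. CPM was scaled within each line. Shares and lengths were compared by exact permutation. The code was tested on simulated data. Replicate pairs differed beyond sampling noise (chi-square per degree of freedom 2.79 to 89.3), so none was counted as a duplicate.

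The members and the pathway lists were chosen with earlier results of these data known. Named genes are the members, up to 4 called genes of each list against control, taken by adjusted p among those with an average log2 CPM of at least 1, the 2 genes most like each member, and BLM; not all are printed. Of the 14 genes in the latent complex list, 13 were found by symbol. Alternatives were other scaling factors, filters, DESeq2 1.42.0, limma 3.58.1 on counts or on TPM plus 1 or 0.1, a replicate block, other sets of libraries, and leaving out each library.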

Additional observations from a re-analysis of the deposited data

Results flagged for a closer look

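For 8 of the 9 genes the effect of siRNA1 differed between the cell lines in a test of the difference itself (edgeR interaction, adjusted p under 0.05), which is what marked them out. The value in A549 was higher than in MDA-MB-231 on the log2 scale by 2.16 for INHBA, 2.08 for TGFB2, 1.47 for TGFBR2, 1.27 for SMAD6, 1.01 for TGFB3, 0.80 for TGFBR3, 0.74 for SMAD7 and 0.48 for TGFBR1. In all 3 siRNA1 libraries of A549, TGFB2 and INHBA lay above every control library, and in MDA-MB-231 both overlapped control. The TGFBR1 difference was not called in 3 of the alternatives named beside it. Beside these, 57.8% of all genes tested differed in the same way.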

How the results depend on the processing

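Over 1791 refits of single members, 12 reversed a sign, 32 lost a call and 20 gained one. All reversals were of uncalled values near 0. Under upper quartile scaling, TPM plus 1 and TPM plus 0.1, TGFBR3 with siRNA1 in A549 went from -0.07 to 0.0185, 0.16 and 0.18, and SMAD6 between siRNA2 and siRNA3 from -0.06 to 0.0154, 0.0473 and 0.0507. With single libraries left out, TGFB3 with siRNA2 ranged from -0.24 to 0.18. The TGFB1 difference between lines was -0.0024 with all 18 libraries and -0.0067 to 0.22 with single libraries left out. No count of called genes or members moved by over 1.5 times. Members called with siRNA1, siRNA2 and siRNA3 in A549 ranged over 7 to 8, 5 to 8 and 7 to 8, and in MDA-MB-231 over 4 to 7. Other scalings moved the centre of all genes: with siRNA1 in A549 their median log2 fold change was 0.09 by TMM, 0.18 by upper quartile and 0.23 on TPM plus 1, and the share of calls that were higher was 54.3%, 59.8% and 68.4%. On TPM plus 1 that share went from 51.6% to 69.4% between siRNA1 and siRNA3, from 51.1% to 65.5% between siRNA1 and siRNA2, from 53.3% to 63.2% for the difference between lines, from 49.8% to 60.0% in MDA-MB-231 and from 49.5% to 38.7% between controls.

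No steady pairing by replicate number was seen: over 21 pairs of same-numbered libraries the correlation of deviations ran from -0.475 to 0.255, with 3 above 0.1. This cannot show that the samples were unpaired, since the deviations also varied with transcript length. With the replicate number as a block, TGFB2 between siRNA1 and siRNA3 was not called (0.37, edgeR adjusted p = 0.0520), no other call of a member changed, and the A549 siRNA1 count of called genes went from 11404 to 11064. Depth limits INHBA in A549 control (10 to 11 counts) and TGFB3 (24 to 88 counts in A549).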
